A study of Mus musculus with 14 samples.

Results

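The lymphocyte transcription factors described here are 10 genes, Ikzf1, Ikzf3, Pax5, Ebf1, Bach2, Bcl6, Tcf7, Satb1, Bcl11b and Pou2af1, each found through the probe sets whose single gene symbol in the array annotation is that gene. Probe sets for 9 of the 10 were found, 23 in all, among 29131 probe sets with a single symbol for 15964 genes. No probe set with the single symbol Tcf7 was found, so Tcf7 was not analysed here. Mouse splenocyte RNA was hybridised to 14 oligonucleotide arrays. These belong to 3 designs with different probe sets, here sets A, B and C as lettered in the labels. One group of splenocytes was enriched for follicular dendritic cells (FDC-E), a stromal cell type that displays antigen to B cells, and the other group was depleted of this cell type (FDC-D). Depleted samples 1 and 2 were on every set, enriched samples 2 and 3 also, and enriched sample 1 was on sets A and C. The sources used here do not give strain, age, treatment or isolation. The labels do not say whether the samples came from separate animals, so p-values reflect only how far these samples spread, which may be technical.

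Each of these factors binds DNA or a DNA-bound partner in the nucleus and sets which lineage genes a lymphocyte uses. In B cells, Ebf1 and Pax5 switch on the genes of the B cell receptor complex and hold B cell identity, Bcl6 keeps the germinal centre programme, Bach2 delays the step to plasma cells by repressing Prdm1, and Pou2af1 is the co-activator of the octamer-binding factors Pou2f1 and Pou2f2. In T cells, Tcf7 and Bcl11b commit progenitors to the lineage and Satb1 folds chromatin around T cell genes. Ikzf1 (Ikaros) and Ikzf3 (Aiolos) are zinc finger proteins of both lineages that bring repressor complexes to DNA. Several of these genes are known outside the lineage that they are named for here, such as Bach2 and Bcl6 in T cells and Ebf1 in stromal cells.

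The 250 bases upstream of a start site are shown for 5 factors, the gene with the largest fall in each group (Bach2, Ikzf1 and Satb1), Ebf1, whose probe sets did not move alike, and Pax5, which did not pass. They come from RefSeq (build GRCm38.p6), which held promoters for 9 of the 10 genes, in 17 windows. Capitals mark matches on either strand to motifs linked to these factors or to Ets proteins, and the 5 motifs searched were CCGGAAG (Ets), TGGGAA (Ikaros), TCCC and GGGA with any 2 bases between (Ebf), CTTTGAA (Tcf) and ATGCAAAT (octamer).
Bach2, chr4:32417185-32417434, plus strand: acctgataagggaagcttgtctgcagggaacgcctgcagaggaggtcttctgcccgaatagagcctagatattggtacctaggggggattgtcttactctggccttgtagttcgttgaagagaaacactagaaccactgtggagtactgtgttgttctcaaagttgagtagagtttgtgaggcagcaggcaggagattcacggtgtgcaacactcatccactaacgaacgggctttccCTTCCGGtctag
Ikzf1, chr11:11685675-11685924, plus strand: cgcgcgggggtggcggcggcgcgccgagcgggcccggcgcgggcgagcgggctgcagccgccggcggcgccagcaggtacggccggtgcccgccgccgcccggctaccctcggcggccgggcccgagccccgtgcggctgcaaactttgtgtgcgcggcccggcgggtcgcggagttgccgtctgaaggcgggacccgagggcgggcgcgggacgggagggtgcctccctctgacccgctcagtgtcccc
Satb1, chr17:51812055-51812304, minus strand: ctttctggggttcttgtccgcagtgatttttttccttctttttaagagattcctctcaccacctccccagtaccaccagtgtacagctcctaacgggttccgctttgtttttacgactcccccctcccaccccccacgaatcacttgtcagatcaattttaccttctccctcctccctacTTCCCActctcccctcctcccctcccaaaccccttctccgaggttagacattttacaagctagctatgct
Ebf1, chr11:44619978-44620227, plus strand: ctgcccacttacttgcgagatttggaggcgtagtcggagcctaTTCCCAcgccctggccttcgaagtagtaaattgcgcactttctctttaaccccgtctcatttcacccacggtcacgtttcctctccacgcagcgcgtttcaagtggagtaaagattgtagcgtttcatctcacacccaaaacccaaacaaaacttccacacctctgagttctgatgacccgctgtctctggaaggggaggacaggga
Pax5, chr4:44710695-44710944, minus strand: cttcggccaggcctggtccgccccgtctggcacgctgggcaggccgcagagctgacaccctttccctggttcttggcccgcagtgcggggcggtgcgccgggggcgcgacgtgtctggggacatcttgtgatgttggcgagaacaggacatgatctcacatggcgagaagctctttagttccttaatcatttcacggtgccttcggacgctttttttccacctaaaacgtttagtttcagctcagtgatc

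The Bach2 window held an Ets match 6 to 12 bases before the start site, and the Satb1 and Ebf1 windows held an Ikaros match each. Among all 32851 mouse promoter windows, 6.91% held the Ets motif, 21.6% the Ikaros motif, 4.46% the Tcf motif, 1.6% the octamer and 0.779% the Ebf motif. Among the 17 windows of the factors, 2 held the Ets motif (Bach2 and Tcf7), 2 the Ikaros motif, 1 the Tcf motif (Bcl11b) and 0 the octamer or the Ebf motif. Satb1 has 5 windows, and Ikzf1 and Ebf1 have 2 each, of which 1 is printed. Where the windows of a gene differed, the one with the most motif matches was printed. The Satb1 and Ebf1 windows were thus chosen for their match, and the other windows of these genes held none. The printed Ikzf1 window stood out in base composition, with 82% G or C against a median of 52.4% over all windows. No binding was measured here, so a match is a description of the letters.

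Most of the factors were lower in the FDC-enriched cells. Of the 9 genes with a probe set, all were tested, 7 fell, 0 rose and 2 did not pass (limma, adjusted p under 0.05), where the brightest tested probe set stands for a gene. Over all 12267 tested genes, 14.4% fell and 19.2% rose, which became 18.8% and 16.4% under quantile normalization, and 19.9% and 15.3% when arrays were scaled to the median one. The median log2 fold change of the 9 genes was -0.93, against 0.02 over all tested genes, of which 2.06% lay below -0.93. In 7 of the 9 genes every enriched array lay below every depleted array, an order that 27.3% of all tested genes showed. The smallest p that an exact permutation test of 1 gene could give is 0.1 on sets A and C and 0.333 on set B, so the calls rest on the limma fit over all probe sets. In bulk samples fewer cells of a type and less RNA per cell cannot be told apart.

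**Figure D1:**
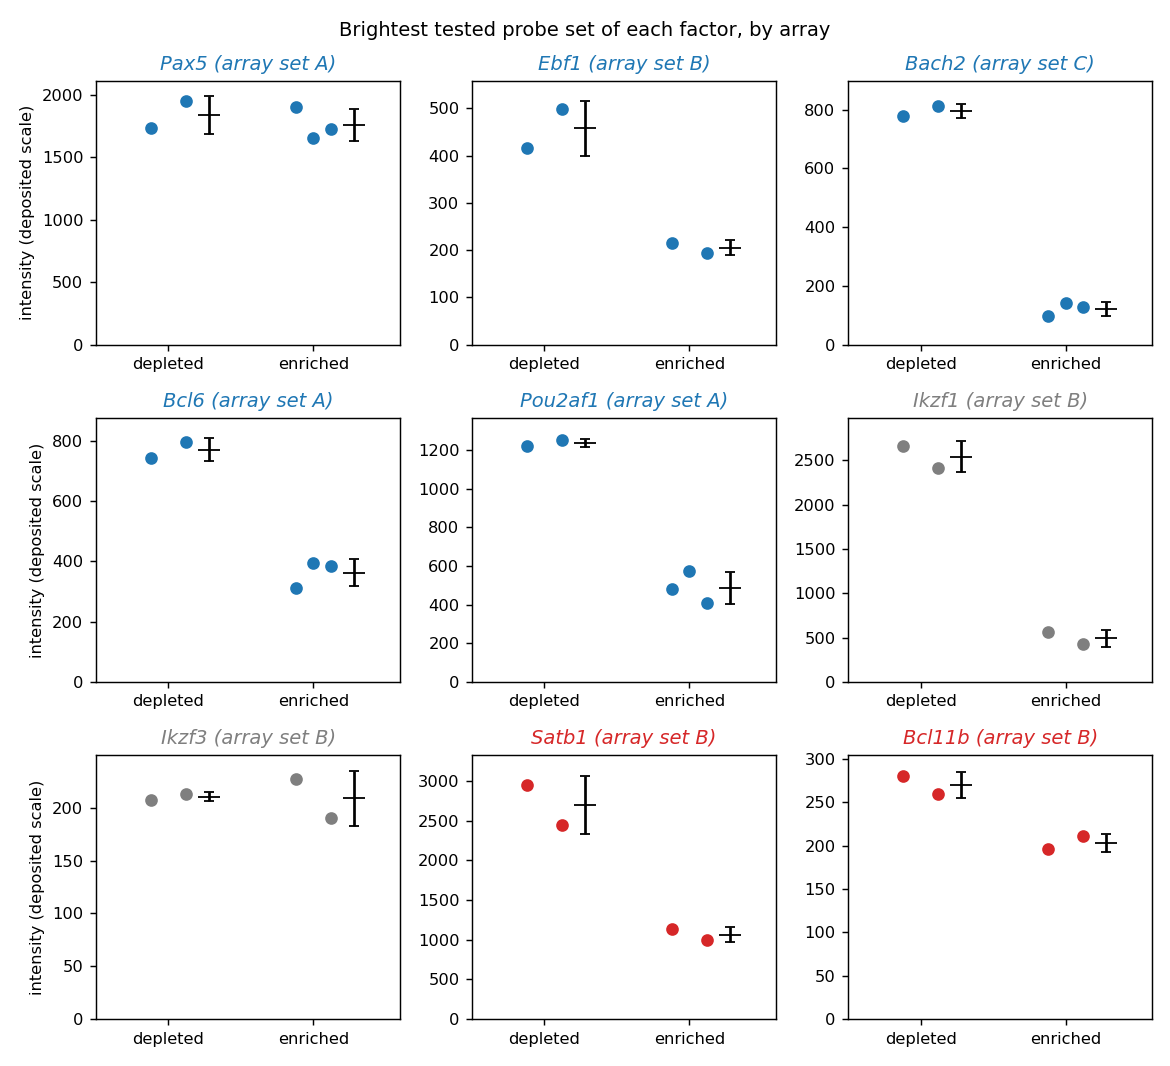
Intensity on the deposited scale (y, from 0) of the brightest tested probe set of the 9 factors on each depleted and enriched array (points), with the group mean and SD (black, n = 2 or 3). The enriched arrays lie below the depleted arrays in 7 panels, and the groups overlap for Pax5 and Ikzf3.

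Among the B cell factors, Bach2 had the largest fall. Its probe set on set C (135069_at) read 778 and 812 on the depleted arrays and 96.7, 141 and 128 on the enriched arrays. The groups were far apart, and Bach2 fell 4.88-fold (log2 fold change -2.29, SE 0.10, adjusted p = 1.51e-06). Folds are on the log2(intensity + pseudocount) scale, so the change of dim genes is understated. Prdm1, the gene that Bach2 is known to repress, rose 1.53-fold (adjusted p = 0.000507). It read 125 and 131 on the depleted arrays and 214, 264 and 251 on the enriched arrays of set A. Its probe set was dim, at the 5.8th percentile of level, and a link to the Bach2 fall was not tested. Prdm1 is also made by cells other than plasma cells, and of the 7 tested plasma cell markers 1 rose (Prdm1), 3 fell and 3 did not pass, with a median log2 fold change of 0.02. One that fell, Jchain, lost its call when depleted sample 2 was left out (adjusted p = 0.0701).

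Pou2af1 and Bcl6 fell by smaller amounts. Pou2af1 (93915_at, set A) read 1224 and 1252 on the depleted arrays and 479, 572 and 406 on the enriched arrays, with no overlap. It fell 2.33-fold (log2 fold change -1.22, SE 0.12, adjusted p = 7.24e-05). Its other probe set, below the filter on dim probe sets, read 30.1 and 31.0 against 38.0 and 35.3, with no value for enriched sample 2, and so gave no fall. Pou2f2, the octamer-binding partner of Pou2af1 in B cells, fell 2.67-fold on set B (adjusted p = 3.44e-07), from 982 and 1139 to 346 and 344. Bcl6 (103015_at, set A) read 743 and 797 on the depleted and 311, 394 and 383 on the enriched arrays. The lowest depleted value was above the highest enriched value, and Bcl6 fell 1.91-fold (log2 fold change -0.93, SE 0.10, adjusted p = 0.000111).

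Ebf1 was read by 4 tested probe sets that did not move alike. The brightest, 115110_at on set B, read 417 and 498 on the depleted arrays and 216 and 194 on the enriched arrays, and fell 1.88-fold (log2 fold change -0.91, SE 0.08, adjusted p = 1.19e-05). The probe set on set A (92535_at) read 453 and 536 against 193, 251 and 179.8, and fell 1.97-fold (adjusted p = 0.000217). Both of these put the depleted arrays well above the enriched ones. Another on set B (114854_at) read 281 and 255 against 233 and 228, and missed the threshold at -0.16 log2 (adjusted p = 0.0634). It passed when arrays were quantile normalized (0.0333) or scaled to the median array (0.0306). The probe set on set C (171204_at) read 149.7 and 143 against 152, 157 and 151, and missed it at 0.05 log2 (adjusted p = 0.532). Which of these probe sets read Ebf1 RNA alone was not tested.

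Pax5 was the B cell factor that did not pass. Its bright probe set (96993_at, set A), at the 92.7th percentile of level, read 1732 and 1946 on the depleted arrays and 1903, 1652 and 1724 on the enriched arrays. The groups overlapped, with a log2 fold change of -0.06 (95% interval -0.27 to 0.15, adjusted p = 0.655). Its other probe set (102578_at) lay below the filter and read 158 and 155 against 150.1, 127 and 139.9. Those enriched values lay just below the depleted ones, and in the fit with no filter the log2 fold change was -0.11 (adjusted p = 0.298). Thus neither Pax5 probe set passed. The interval of the bright one lay above the log2 fold changes of the other 4 B cell factors at their brightest probe sets, -2.29 to -0.91. Of the dimmer tested Ebf1 probe sets, 114854_at and 171204_at lay inside that interval, at -0.16 and 0.05. The remaining one, 92535_at, lay below it at -0.98. Whether the bright probe set reads Pax5 RNA alone was not tested. To find genes of like pattern on set A, log2 values of each probe set were centred on their mean over the 5 arrays. Levels were thus not compared. The genes nearest to the bright Pax5 probe set in this pattern were Polrmt, Atp2a1 and Krt5. Their root mean square differences were 0.014 to 0.018 on the log2 scale among 6923 probe sets compared. As the bright Pax5 probe set was nearly flat, matches this close can arise from variation between arrays alone.

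Of the Ikaros factors, Ikzf1 fell at its bright probe sets. On set B, 105208_at read 2668 and 2419.9 on the depleted arrays and 561 and 421 on the enriched arrays, a fall of 4.62-fold (log2 fold change -2.21, SE 0.11, adjusted p = 1.85e-07). The second probe set on set B (112792_at) read 1265 and 1317 against 449 and 360.5 and fell 2.84-fold (adjusted p = 6.13e-07). On set A, 102293_at read 457 and 468 on the depleted and 464, 355 and 378 on the enriched arrays, so that enriched sample 1 lay between the depleted samples. Its log2 fold change of -0.18 did not pass (adjusted p = 0.185), but leaving out enriched sample 1 gave -0.28 and passed (0.00873), as did weighting the arrays (0.0166) or scaling to the median array (0.0374). A further Ikzf1 probe set on set A (102294_at), below the filter, read 121 and 130.2 against 139, 107 and 118.0, and its groups overlapped. Enriched sample 1 was not on set B. Ikzf3, read only by 111140_at on set B at the 21.3th percentile of level, read 207 and 213 on the depleted and 228 and 191 on the enriched arrays. The enriched values lay on both sides of the depleted ones, with a log2 fold change of -0.01 (95% interval -0.17 to 0.15, adjusted p = 0.933).

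**Figure D2:**
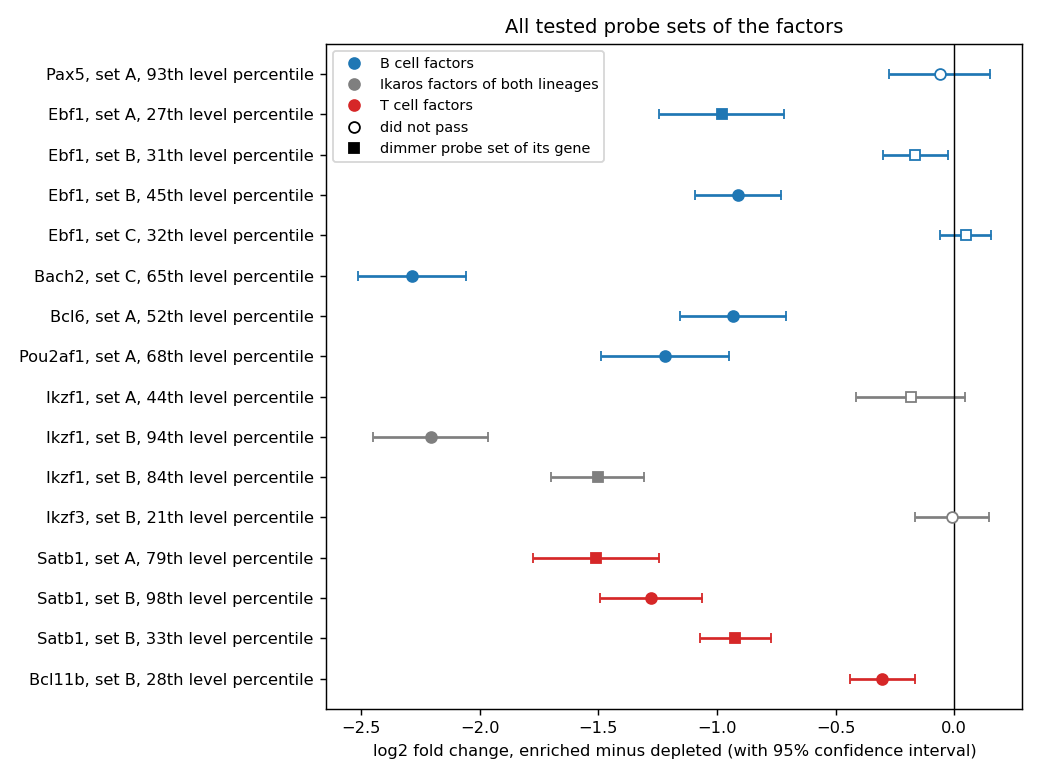
Log2 fold change, enriched minus depleted, with 95% confidence interval (x) for the 16 tested probe sets of the 9 factors (y, with array set and level percentile). Filled symbols fell, open symbols did not pass, circles stand for the gene and squares are its dimmer probe sets; 11 probe sets fell and 5 did not pass.

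Both measured T cell factors fell. Satb1 on set B (111448_f_at) read 2954 and 2441 on the depleted arrays and 1131 and 993 on the enriched arrays, a fall of 2.43-fold (log2 fold change -1.28, SE 0.10, adjusted p = 3.68e-06). The maker's ending f marks probe sets whose probes can match similar sequences. The set A probe set of Satb1 (99665_at), without that ending, read 1966 and 1743 against 591, 686 and 512, and fell 2.85-fold (adjusted p = 1.86e-05). On set B, 112432_at read 378 and 388 against 177 and 151 and fell 1.9-fold (adjusted p = 2.79e-06). All 5 Satb1 probe sets, the 2 below the filter included, were lower on every enriched array than on every depleted array. The 2 dim ones read from 12.4 to 16.9 in enriched samples and from 26.7 to 36.9 in depleted samples.

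Bcl11b was dim on these arrays. Its tested probe set (116568_at, set B) lay at the 28.1th percentile of level and read 281 and 259 on the depleted and 196 and 210.5 on the enriched arrays. The groups did not overlap, and Bcl11b fell 1.23-fold (log2 fold change -0.30, SE 0.06, adjusted p = 0.00318). The other Bcl11b probe sets lay below the filter, 117168_at with 96.1 and 102 against 50.1 and 63.0, and 109517_at with 42.4 and 40.1 against 26.9 and 18.9. In the fit with no filter both had adjusted p under the threshold, 0.000367 and 0.00288, with log2 fold changes of -0.39 and -0.24. For Satb1 and Bcl11b together, all 8 probe sets had every enriched array below every depleted array, an order that 24.8% of all probe sets showed. Of the 10 probe sets of the B cell factors 7 did so, and of the 5 of the Ikaros factors 2.

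B cell and T cell factors were set side by side by their medians. The B cell factors had a median log2 fold change of -0.93 over 5 genes (range -2.29 to -0.06), and the T cell factors of -0.79 over 2 genes (range -1.28 to -0.30). The ranges overlapped, and the T cell median lay 0.14 above that of the B cell factors. Genes are not replicates, so this difference has no test, and it depended on single arrays and on the choice of probe set. It was 0.007 without depleted sample 2, 0.318 without depleted sample 1 and 0.366 when the dimmest tested probe set stood for a gene. Over all 16 tested probe sets of the factors 11 fell, 0 rose and 5 did not pass, whereas of all 23039 tested probe sets 14.7% fell and 17.5% rose.

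**Figure D3:**
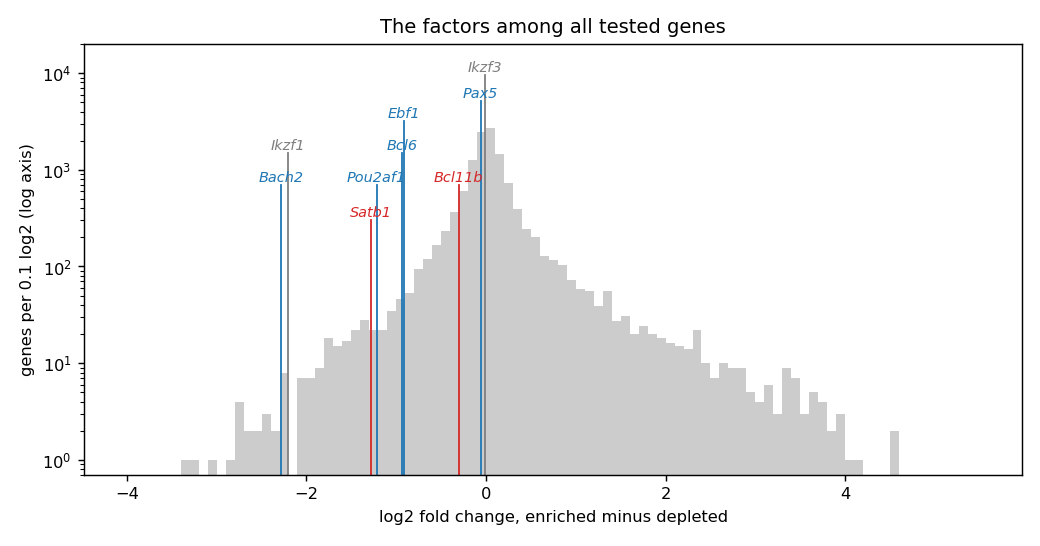
Number of genes per 0.1 log2 (y, log axis) by log2 fold change, enriched minus depleted (x), for all 12267 tested genes (grey), with the factors marked as lines (blue B cell, grey Ikaros, red T cell). Bach2 and Ikzf1 lie far out on the left side, and Pax5 and Ikzf3 lie at the centre.

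The lineage markers moved in the same samples. All 13 tested B cell markers fell, with a median log2 fold change of -1.63 and a range of -2.43 to -0.42. Of 13 tested T cell markers 11 fell, 0 rose and 2 did not pass, with a median of -1.06. The summed intensity of the 11 B cell markers with a value on every array of set A was 40740 and 40875 in the depleted samples against 15704 to 20838 in the enriched ones, and that of 12 T cell markers was 10075 and 10537 against 5147 to 5878. None of these markers was listed at the lowest value of the tables on any array. Of the 9 tested NK cell markers all fell, and of 8 neutrophil markers 5 fell and 3 did not pass, with medians of -1.25 and -0.59. Of 3 germinal centre markers 1 fell, 1 rose and 1 did not pass, with a median of -0.02. The one that rose, Plxnb2, lost its call under quantile normalization (adjusted p = 0.0591) and when depleted sample 1 was left out (0.111). In the opposite direction, all 11 endothelial, 9 of 10 reticular stroma, 9 of 11 macrophage and 8 of 11 FDC markers rose. Their medians were 3.65, 2.25, 0.83 and 0.97. Under either other scaling 6 FDC and 8 macrophage markers rose. Among the FDC markers 1, Cr2, fell and 2 did not pass. B cells share Cr2, and their part in its fall was not tested. The summed intensity of 9 FDC markers on set A was 4785 and 5212 in the depleted samples and between 20922 and 24283 in the enriched ones. The part of these other cells in the falls of the factors was not tested.

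Of 15 tested genes that Pax5 and Ebf1 are known to control, 11 fell, 1 rose and 3 did not pass, with a median log2 fold change of -1.28; 8 of the 15 are also B cell markers above. The Src family kinase gene Blk fell 3.62-fold, the B cell receptor signalling genes Cd79a and Cd79b 3.54- and 3.39-fold, and the inhibitory receptor gene Cd22 3.45-fold (adjusted p = 4.41e-06, 6.81e-05, 7.39e-05 and 1.54e-06). Cd79a read 5313 and 5326 on the depleted and 1384, 1884 and 1138 on the enriched arrays of set A. Rag1, Igll1 and Cd55 had log2 fold changes of -0.09, -0.04 and 0.07, and Cplx2 rose 1.24-fold.

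T cell genes tied to Tcf7 and Bcl11b were mostly lower in the enriched cells. Of 13 tested, 12 fell, 0 rose and 1, the adaptor gene Lat, did not pass, with a median log2 fold change of -1.36; 11 of the 13 are also T cell markers above. Cd3d, part of the T cell receptor complex, fell 7.05-fold, the interleukin 7 receptor gene Il7r 6.76-fold, the co-receptor gene Cd8b1 4.94-fold and the costimulatory receptor gene Cd28 4.17-fold (adjusted p = 1.37e-07, 9.9e-08, 5.97e-06 and 3.34e-07). Cd8b1 had no value for enriched sample 2 and was fitted on the other arrays. Il7r read 1142 and 1252 on the depleted and 94.3, 107 and 104 on the enriched arrays of set A. Cd3d read 45.2 to 62.1 and Cd28 55.8 to 73.4 on the enriched arrays, below the pseudocount of 88.49. Both thus passed the filter on dim probe sets through the depleted arrays alone.

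**Figure D4:**
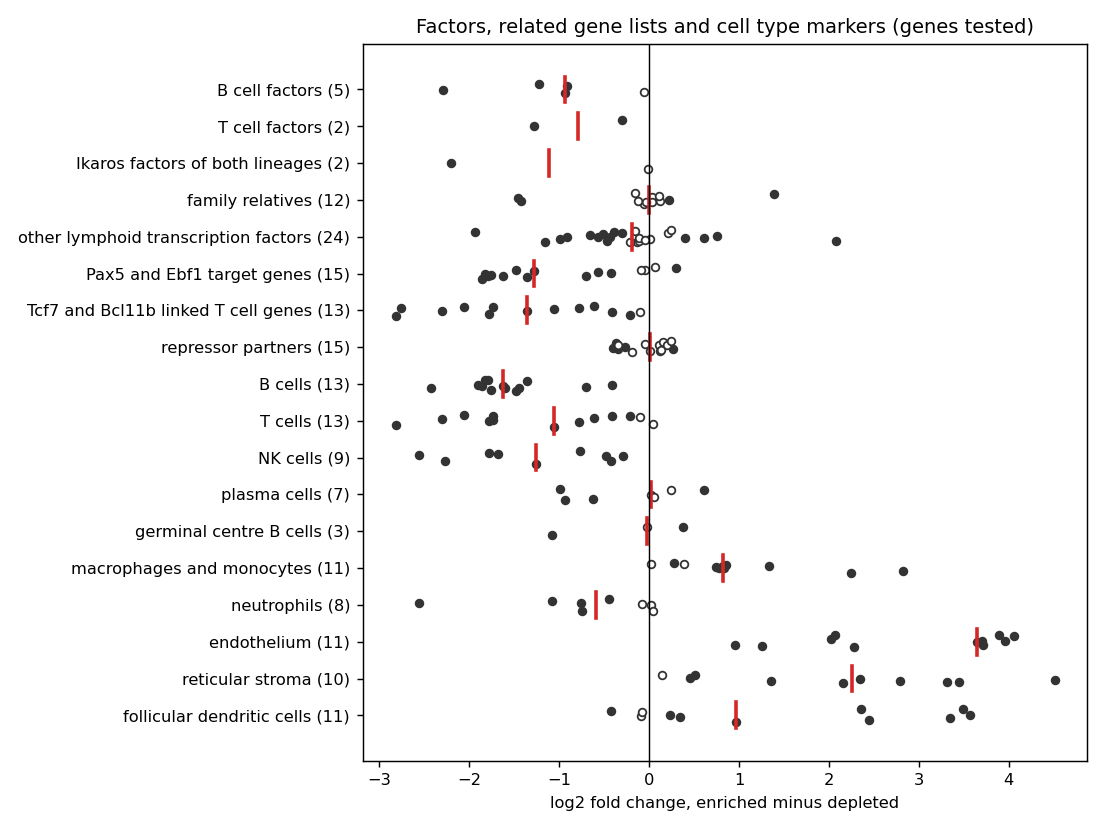
Log2 fold change, enriched minus depleted (x), of every tested gene of the factors, of related gene lists and of cell type markers (y, number of genes tested in brackets); filled points passed, open points did not, and the red bar is the list median. The B cell, T cell and NK cell lists lie on the left side, endothelial, stromal and macrophage lists on the right, and the medians of the family relatives and repressor partners near 0.

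Of 12 tested family relatives of the factors, 2 fell, 2 rose and 8 did not pass. These shares were near those of all tested genes (14.4% fell and 19.2% rose), and the log2 fold changes ran from -1.45 to 1.38. Bcl11a, the B cell relative of Bcl11b, fell 2.74-fold, from 529.6 and 519 to 144 and 136 on set B (adjusted p = 4.58e-08). Bach1, a broadly made relative of Bach2 that represses haem-regulated genes, rose 2.61-fold, from 264 and 272 to 788, 813 and 934 on set A (adjusted p = 5.6e-06), so that the Bach genes moved in opposite directions. Ikzf5 rose 1.17-fold (adjusted p = 0.0183), but lost its call when depleted sample 1 (0.0521) or 2 (0.123) or enriched sample 3 (0.103) was left out. A second tested Ikzf5 probe set, on set C, did not pass at 0.13 log2 (adjusted p = 0.114). Lef1, the closest relative of Tcf7, is named after its values were seen. Its brightest probe set, on set B, missed the threshold at -0.16 log2 (adjusted p = 0.0948), whereas its probe sets on set A fell with -1.24 and -0.62 (1.44e-05 and 0.000782).

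Other transcription factors of lymphoid cells fell more often than they rose. Of 24 tested, 11 fell, 4 rose and 9 did not pass, with a median log2 fold change of -0.18. Over all tested genes 14.4% fell and 19.2% rose, so the share that rose was near that of all genes. Myb, a factor of progenitors and dividing lymphocytes, fell 3.81-fold, from 437 and 445 to 40.6, 65.1 and 46.4 on set A (adjusted p = 1.02e-06). Its probe set was dim, at the 0.7th percentile of level. The enriched values lay below the pseudocount of 88.49, so Myb passed the filter through the depleted arrays alone. Foxp1, which acts in B cell development and in resting T cells, fell 2.23-fold (1.38e-06) and Irf4, a factor of activated B cells and plasma cells, 1.98-fold (0.000403). Id3, an inhibitor of the E proteins that drive Ebf1 and other lymphoid genes, rose 4.23-fold, from 288 and 267 on the depleted arrays to 1274, 1461 and 1660 on the enriched arrays of set A (adjusted p = 2.07e-06). Id3 is also made by endothelial and stromal cells, whose markers rose as given above. Which cells the Id3 rise came from was not tested.

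Genes of the repressor complexes that Ikaros, Bcl6, Bcl11b and Bach2 proteins work with had small fold changes. Of 15 tested partner genes 4 fell, 1 rose and 10 did not pass, with a median log2 fold change of 0.01. Over all tested genes 14.4% fell and 19.2% rose. The histone-binding protein gene Rbbp4 fell 1.32-fold (adjusted p = 0.0144, and 0.139 without depleted sample 2), the scaffold gene Sin3a 1.29-fold (0.00344) and the deacetylase gene Hdac1 1.27-fold (0.00347). Sin3b rose 1.2-fold (adjusted p = 0.0491) and did not pass without depleted sample 1 (0.141) or 2 (0.287) or enriched sample 2 (0.0926) or 3 (0.087), nor under quantile normalization (0.195), with scaling to the median array (0.243), with no filter (0.0584), with the replicate number as a block (0.0816) or with adjustment over all sets (0.0591). Under either of these scalings 6 of the 15 fell and 0 rose. Of all tested genes 18.8% fell and 16.4% rose under quantile normalization. With scaling to the median array these shares were 19.9% and 15.3%. A second tested Sin3b probe set, on set A, did not pass at 0.03 log2 (adjusted p = 0.79).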

How the data were processed

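For each array set the authors deposited a table of intensity on a linear scale; the sources used here do not give how it was summarised or scaled. Arrays of a set differed in 2%-trimmed mean by a factor of at most 1.08, and the deposited scale was kept. Median intensities were higher on the enriched arrays of every set. They were 244 to 250.8 on depleted and 264.7 to 279 on enriched arrays of set A. On set B they were 200.2 to 202 and 206.9 to 208.8, and on set C 123 to 123.8 and 125.5 to 126.3. Enriched sample 2 lacked 893 values on set A. Precision is limited by how many arrays there are.

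Gene names came from the array annotation, with symbols updated by Entrez identifier to the GRCm38.p6 gene table. Those with 1 symbol numbered 10833, 10581 and 7717 on A, B and C, with several 396, 178 and 150, and with none 1193, 1652 and 4001; 10817, 10550 and 7677 of the first were found in the gene table. Each set was fitted alone with limma 3.58.1 in R 4.3.3 (lmFit, eBayes with a trended prior variance, two-sided) on log2(intensity + pseudocount), the pseudocount being the 20th percentile of positive values (88.49, 81.23 and 53.13). Tested probe sets exceeded the 40th percentile of their array on 2 or more arrays, without the 66 controls of each set, and p-values were adjusted by Benjamini-Hochberg over the set (7895, 7786 and 7358 probe sets). Each group had 2 or more arrays on every set, so a probe set could pass the filter through 1 group alone. The brightest tested probe set, by rank of level in its set, stands for a gene; set A, B and C values are not compared in level. Simulated 2-fold changes were recovered at 96%, 97.3% and 100% on A, B and C, and 1.5-fold changes at 77.9%, 83.6% and 93.5%. These runs had 7115, 7571 and 7302 tested probe sets, and 3.72%, 3.61% and 4.41% of their calls were false. Few probe sets were changed, and noise was drawn as normal with the SD of each probe set in these arrays. The real contrast had more changes, so these rates may not carry over to it.

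The members and gene lists were chosen with earlier results of these data known. Named are all members, up to 4 passing genes of largest change per related list, and the 3 genes nearest to Pax5; the same rule for Tcf7 could not be applied. Outside this rule, Rag1, Igll1, Cd55, Cplx2, Lat, Cr2 and Lef1 were named after their values were seen. Of the marker lists, the text gives counts and medians. The alternatives were 2 scalings, 2 pseudocounts, no filter, no trend, array weights, the replicate number as a block, adjustment over all sets, the dimmest probe set and leaving out each sample.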

Additional observations from a re-analysis of the deposited data

How the results depend on the processing

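The count of factors that fell was 7 of 9 under 14 of the 15 alternatives and 6 with the dimmest tested probe set, where Ikzf1 had a log2 fold change of -0.18 (adjusted p = 0.185); the count that rose was 0 under all of them. Of 119 values of single factors under the alternatives, that of Ikzf1 was the only 1 to lose its call, and none changed sign with a call. By level percentile the dimmest tested Ebf1 probe set was 92535_at on set A, which fell. The Ebf1 probe sets that did not pass, 114854_at and 171204_at, stood for the gene neither as brightest nor as dimmest. The difference of the T cell and B cell medians was 0.142, and it was 0.236 under quantile normalization and 0.366 with the dimmest probe set. It ranged from 0.007 to 0.318 when a sample was left out, and the cause was not tested. Leaving out a depleted sample on any set, or an enriched sample on B, leaves a lone array, assumed to vary like the other group.

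The replicate number as a block could be fitted on sets A and C, where numbers 1 and 2 occur in both groups, but not on B, which shares only number 2. With that block the count of factors that fell was 7 and the difference of medians 0.177. Same-numbered arrays had correlations of deviations from the group means of 0.033 and 0.061 on A and -0.312 and -0.149 on C. The deviations of the 2 depleted arrays of a set mirror each other, so these values are not independent. They cannot tell whether same-numbered samples were prepared together. Ikzf3, Bcl11b and the dim probe sets of Satb1, Pax5 and Ebf1 lie in the lower part of the range of level, where small changes are hard to see, and Tcf7 was not analysed here.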
